A study of Homo sapiens with 2 samples.

Results

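Some stretches of chromatin bound by ZFX held not 1 peak but a run of them. The data are ChIP-seq, in which chromatin fragments carrying a protein are pulled down with an antibody and sequenced, from the human medulloblastoma line DAOY. Runs were found in the deposited peak list by joining peaks on chromosomes 1 to 22 when the gap between neighbours was 1000 bp or less, and by taking the joined regions with 3 or more peaks. This gave 287 runs among 11804 joined regions, or 2.43% of them (exact 95% interval 2.16% to 2.73%). The runs held 929 of the 14279 autosomal peaks, or 6.51% (6.11% to 6.92%). The other joined regions had 1 peak in 9684 cases and 2 peaks in 1833.

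The study held 2 samples of 1 library each. In the first, sheared DAOY chromatin was precipitated with a rabbit polyclonal antibody against ZFX, and in the second the sheared chromatin was left without precipitation as input. All peaks described here come from the ZFX library; values of the input were not used. A single library allows neither a replicate check nor a test between conditions. Because the runs were chosen from the positions of these same peaks, every value below is a description without a p-value. Intervals treat peaks or regions as independent and cover counting within this list only.

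ZFX is a transcription factor with a long array of zinc fingers and an acidic activating domain, encoded on the X chromosome. It is known for its part in the self-renewal of embryonic and blood stem cells and for binding near the starts of genes that lie in CpG-rich sequence. Medulloblastoma is a tumour of the cerebellum. Gene positions and sequence on the hg19 build, on which the peaks lie, were not used here, so the runs are named by position and not by gene.

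Most runs held the fewest peaks that the rule allows. Of the 287 runs, 233 held 3 peaks, 46 held 4, 3 held 5, 4 held 6 and 1 held 7. The run with the most peaks lay at chr14:75743291-75750399 and was 7109 bp long. Its 7 peaks, in order along the chromosome, scored 191.77, 396.13, 70.3, 96.66, 94.83, 139.1 and 87.64. The score is the authors' own value for each peak; its unit is not stated, and its lowest value in the list is 50. The strongest peak of this run, the second from its start, was also the widest at 1322 bp, and the gap before it was the largest of the run at 848 bp. From that peak on, the gaps were 96, 125, 4, 197 and 109 bp, so no gap among the later 6 peaks was above 197 bp.

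The other runs of 5 or more peaks differed in where their strong peaks stood. At chr1:156716349-156721916, 6 peaks scored 409.1, 88.72, 535.06, 87.16, 112.84 and 269.17, with the strong peaks set apart by weak ones. At chr19:12899360-12905269, the scores of the 6 peaks were 94.18, 67.12, 85.22, 402.62, 182.72 and 308.86. Here the first 3 peaks were all under 100 and the last 3 all above it, with the largest gap of 911 bp between them. At chr7:5459624-5464552, the 6 peaks scored 88.48, 233.68, 129.81, 146.28, 149.94 and 50.47, and both end peaks were the weakest. The run of 6 peaks at chr7:555756-559959 had its high scores of 184.39 and 166.88 next to its end peaks, and its other peaks scored 56.52 to 72.79. Among the runs of 5 peaks, that at chr1:28832405-28837728 had scores between 83.83 and 211.68. The run at chr11:65323145-65327185 had scores of 50.8 to 111.31, the lowest top score of these 8 runs, and peaks covered only 49.5% of its 4041 bp. The run at chr7:48124214-48129178 had its highest score of 142.09 at the middle peak, with 51.42 and 64.34 at its ends. None of these 8 runs had a peak above 535.06.

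**Figure D1:**
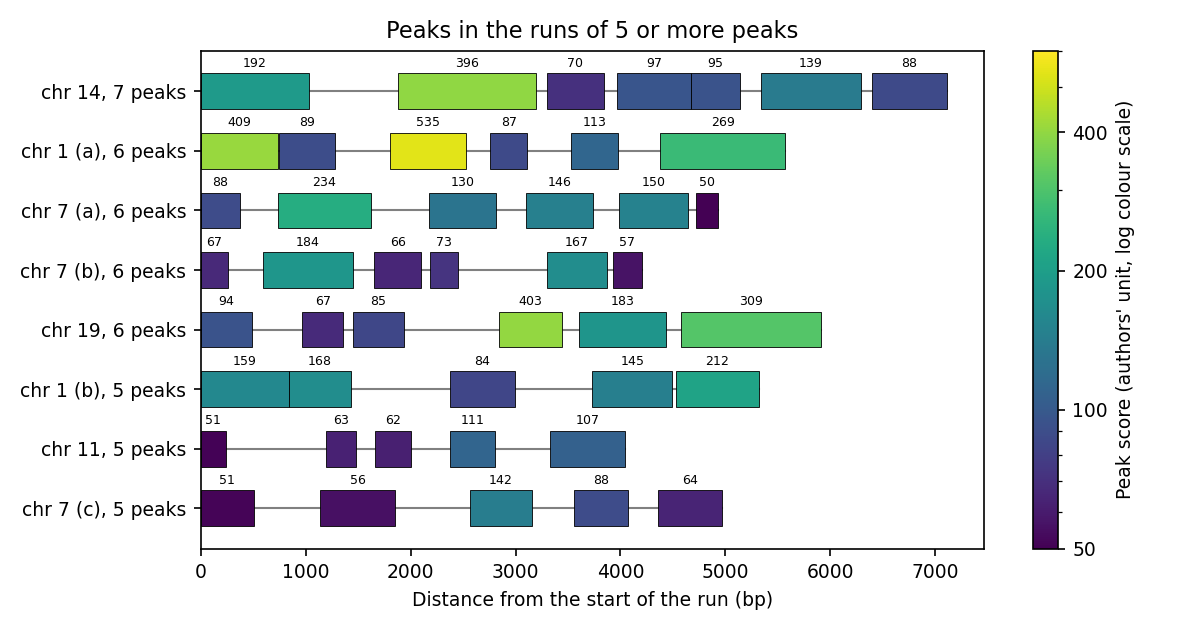
Peaks in the 8 runs of 5 or more peaks, drawn to scale as boxes along the distance from the start of each run (x axis, bp), with the score above each box and as its colour on a log scale. Rows run from 7 peaks at the top to 5 at the bottom, chr 1 (a) and (b) and chr 7 (a) to (c) being in the order of the text; the highest score, 535, is in the row chr 1 (a).

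Runs were longer than regions of 1 peak, as joined regions of several peaks are by construction. Their median length was 2177 bp (95% interval 2084 to 2283 bp), against 1254 bp (1228 to 1275 bp) in regions of 2 peaks and 494 bp (487 to 500 bp) in regions of 1 peak. The shortest run, 856 bp long, was longer than most regions of 1 peak, of which 1607 (16.6%) reached that length. Only 26 of the 9684 regions of 1 peak (0.268%) were as long as the median run. Runs of 3 peaks had a median length of 2046 bp, runs of 4 peaks 3060 bp and the 8 runs of 5 or more peaks 5144.5 bp. Peaks covered a median of 78.4% of a run (75.4% to 80.5%), from 43.3% to 99.4%. The centres of neighbouring peaks in a run lay a median of 750 bp apart (723 to 774 bp).

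The 5 longest runs were not all rich in peaks. The longest, at chr21:9825383-9838757, covered 13375 bp with 4 peaks, because its first peak alone was 9036 bp wide, the widest of all autosomal peaks. The run of 7 peaks on chromosome 14 came second. It was followed by a run of 4 peaks at chr5:137800061-137806747, which was 6687 bp long with a top score of 910.31, and by the run of 6 peaks on chromosome 19 described above. The last of the 5 was a run of 4 peaks at chr2:133029560-133035127, which covered 5568 bp with a top score of 251.9, a length shared with the run of 6 peaks on chromosome 1. At the other end stood 5 runs of 3 peaks each. The shortest, at chr1:1014721-1015576, had scores of 56.79, 67.82 and 58.32 and gaps of 13 and 2 bp. Those at chr10:80898878-80899810, chr5:179779934-179780963, chr1:156390529-156391689 and chr6:64282620-64283848 were 933 to 1229 bp long with top scores of 74.83 to 117.24.

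Peaks in runs were close to lone peaks in median width and score, and fewer of them had high scores. Run peaks had a median width of 475 bp (461 to 492 bp), against 462 bp (452 to 471 bp) for peaks of 2-peak regions and 494 bp (487 to 500 bp) for 1-peak regions. The ratio of runs to 1-peak regions was 0.962, and it turned to 1.04 among runs of 4 or more peaks. The median score was 104.6 in runs (95.2 to 110.1), against 101.5 (98.0 to 105.2) in 2-peak regions and 112.9 (110.1 to 116.2) in 1-peak regions, and the interval for runs just reached that for 1-peak regions. The ratio of runs to 1-peak regions was 0.926. Scores of 100 or more were found for 475 of the 929 run peaks, 51.1% (47.9% to 54.4%), against 5307 of 9684 in 1-peak regions, 54.8% (53.8% to 55.8%), and 53.5% of all autosomal peaks. The upper quartile of scores was 180.5 in runs and 241.9 in 1-peak regions. Scores of 400 or more made up 8.29% of run peaks, against 13.5% in 1-peak regions, and scores from 200 to 400 made up 12.7% in runs, against 17.4%. Peaks of 2-peak regions were near run peaks here, with 50.7% at 100 or more and an upper quartile of 193.6. Of them, 8.81% scored 400 or more and 15.2% from 200 to 400. The smaller share of high scores was therefore not particular to runs. At matched scores, run peaks had the larger median width below a score of 400 and the smaller one at 400 or more. The intervals of runs and 1-peak regions overlapped in every score band, so these widths were not apart. Between scores of 100 and 200, the median width was 568.5 bp for 280 run peaks and 545 bp for 2317 peaks of 1-peak regions. Between 50 and 75 it was 322 bp for 299 run peaks and 311 bp for 3169 peaks of 1-peak regions. From 200 to 400 it was 789.5 bp in runs (693 to 849 bp), against 741 bp (730 to 756 bp) in 1-peak regions, and at 400 or more it was 956 bp in runs (851 to 1119 bp), against 1012 bp (991 to 1040 bp).

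The peaks of a run differed in strength. The median top score was 205.95 in runs (193.1 to 236.1), against 163.5 (155.6 to 172.0) in 2-peak regions and 112.9 in 1-peak regions, a ratio of 1.82 between runs and 1-peak regions. The best of 3 or more peaks is higher than a lone peak by construction, and how much of the ratio this makes was not tested. The median top score of runs lay above 70.1% of 1-peak regions. The weakest peak of a run scored a median of 61.0 (59.5 to 63.3), against 69.4 (67.9 to 70.9) for the weaker peak of 2-peak regions, and the lowest of several is lower by construction. The top score was a median of 1.78 times the second in runs (1.66 to 1.91), against 1.89 times (1.84 to 1.996) in 2-peak regions. It was at least 2 times the second in 120 of 287 runs, 41.8% (36.04% to 47.75%), against 873 of 1833 regions of 2 peaks, 47.6%. The second peak is the weakest of a 2-peak region but not of a run, so these comparisons set unlike ranks side by side. In runs the top score made up a median of 50.1% of the summed score. The strongest peak was also the widest in 212 runs, 73.9% (68.4% to 78.9%). Strongest peaks had a median width of 690 bp, against 415.5 bp for the other 642 peaks of the runs, whose median score was 78.7. Width rose with score in 1-peak regions too, from a median of 311 bp at scores of 50 to 75 to 1012 bp at 400 or more. The link of width and score was therefore not particular to runs.

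**Figure D2:**
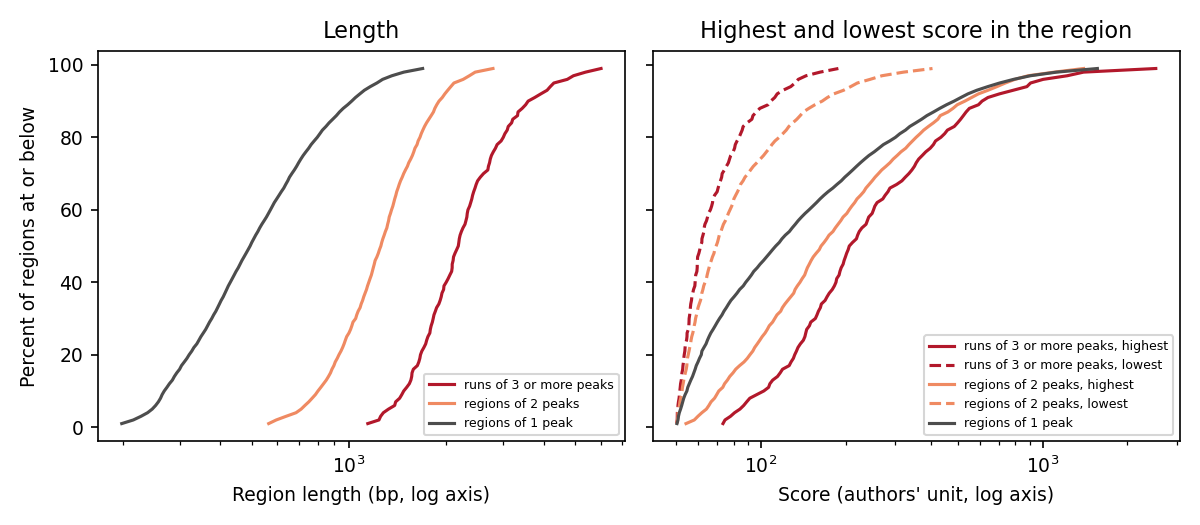
Percent of regions (y axis) at or below a given length in bp (left) or score (right), from the 1st to the 99th percentile, on log x axes. Runs of 3 or more peaks are red, regions of 2 peaks orange and regions of 1 peak grey; in the score panel solid lines are the highest and dashed lines the lowest score of a region. Runs lie to the right in length (median 2177 bp against 494 bp), and their highest and lowest scores lie on either side of 1-peak regions.

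All peaks reached a score of 100 in 34 runs, 11.8% (8.35% to 16.2%), against 25.8% (23.8% to 27.9%) of 2-peak regions and 54.8% of 1-peak regions. The share falls by construction as more peaks have to pass. In 162 runs 2 or more peaks reached it, in 97 runs 1 peak did, and in 28 runs, 9.76% (6.58% to 13.8%), none did. When peaks with scores under 100 were left out before joining, 44 runs were found in place of 287, and with the peaks above the median score of the list 38 were found. Most runs thus did not meet the rule without their weak peaks. Leaving out peaks lowers the number of runs by construction, and only 53.5% of all autosomal peaks scored 100 or more. Whether the fall was larger than for peaks left out regardless of score was not tested.

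A top score of 1000 or more was reached by 13 runs, 4.53% (2.43% to 7.62%), against 238 of the 1-peak regions, 2.46% (2.16% to 2.79%), and 2.52% of all joined regions. Counted by peak, 13 of 929 run peaks did so, 1.40% (0.747% to 2.38%), a share below that of 1-peak regions. The direction of this comparison thus depended on whether regions or peaks were counted, and both pairs of intervals overlap. By construction, a region of 3 or more peaks has more chances to reach 1000 than a lone peak. For 2-peak regions the shares were 2.56% of regions and 1.31% of peaks. In each of the 13 runs the top score was at least 2 times the second, and it belonged to an inner peak in 4 of them. Picking runs by a high top score favours a large ratio to the second by construction. The score 3100, which many of the strongest peaks of the list share, was reached in 3 runs. At chr16:33962897-33966228 the peaks scored 3100, 111.6 and 921.65. At chr21:9825383-9838757 the scores were 3100, 193.63, 84.51 and 559.33. At chr19:4064217-4066543 they were 297.84, 3100 and 52.37. The run at chr21:34913679-34916148 had a last peak of 2426.91 after peaks of 92.37 and 60.76, and that at chr2:133014474-133017494 had a top score of 1516.03, with 263 as the second score. The runs on chromosomes 16 and 2 and the longest run of chromosome 21 lay in crowded places, with 8, 14 and 5 other peaks within 50 kb of their centres. These runs were not screened for repeated sequence, and the part of such sequence in their scores was not tested.

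Gaps within runs were short, as the rule asks. Over the 642 gaps the median was 171 bp (148 to 197 bp), against 165 bp (153 to 178 bp) over the 1833 gaps of 2-peak regions. Gaps of 100 bp or less made up 36.8% in runs and 36.4% in 2-peak regions. Gaps of 500 bp or less made up 83.0% in runs and 83.9% in 2-peak regions. Very short gaps, of 10 bp or less, numbered 40 in runs, 6.23%, against 114 in 2-peak regions, 6.22%. Gaps in runs and in 2-peak regions therefore differed by less than 2 percentage points at each of these limits. With starts counted from 0, no gap was 0, and each pair of neighbouring peaks was separated by at least 1 bp. Were starts counted from 1, each gap would be 1 bp shorter.

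**Figure D3:**
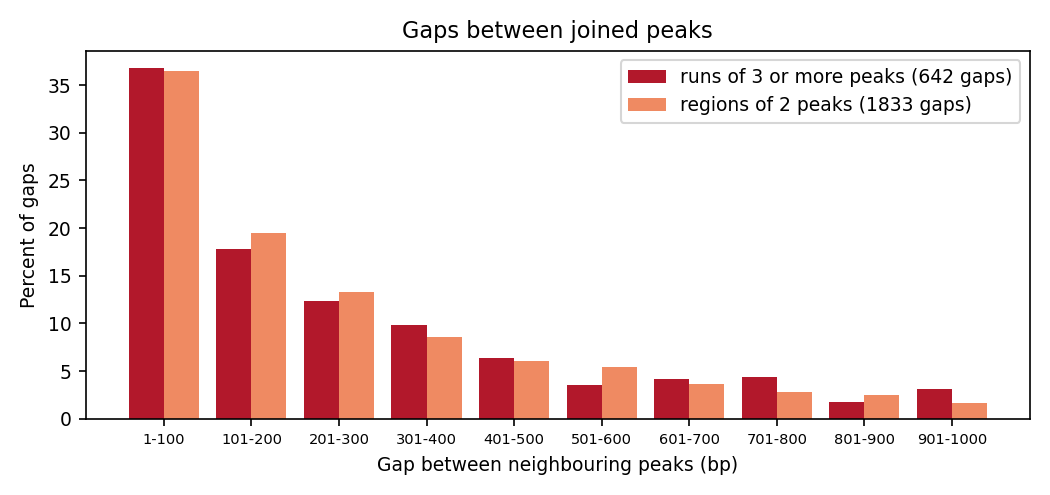
Percent of gaps (y axis) in steps of 100 bp of gap length (x axis), for the 642 gaps within runs (red, left bars) and the 1833 gaps of 2-peak regions (orange, right bars). In both, the first step holds more than any later one, 36.8% in runs and 36.4% in 2-peak regions.

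In runs of 3 peaks the shorter gap had a median of 65 bp (56 to 80 bp) and the longer one 333 bp (295 to 370 bp); sorting the gaps by length sets their order by construction. Both gaps or all gaps were 100 bp or less in 41 of 287 runs, 14.3%, and in 96 runs, 33.4%, at least 1 gap was over 500 bp. Where the strongest of 3 peaks stood at an end, the gap beside it was the shorter one in 76 of 143 runs, 53.1% (44.6% to 61.5%). Its median was 145 bp (90 to 219 bp), against 166 bp (117 to 263 bp) for the gap farther away, and these intervals overlap. Both gaps come from the same runs, and the intervals of the medians leave that pairing out. Near the limit of the rule, the runs with the largest gaps were at chr15:67437915-67442013, chr19:30716648-30719013 and chr19:13943853-13948217, with gaps of 998, 991 and 974 bp and top scores of 197.92, 150.34 and 508.68. The first groups left out, of 3 peaks each, were at chr10:17270227-17274231, chr17:80173481-80176062 and chr22:46467810-46470462. Their largest gaps were 1011, 1025 and 1025 bp and their top scores 320.54, 310.29 and 122.35.

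The strongest peak of a run could stand at any place, with the inner one somewhat ahead. Places are counted along the chromosome from its lower positions, and since the direction of genes was not used, first and last carry no meaning for transcription. In the 233 runs of 3 peaks, the highest score was at the inner place in 90 runs, 38.6% (32.3% to 45.2%), at the last in 77, 33.0% (27.0% to 39.5%), and at the first in 66, 28.3% (22.6% to 34.6%). All 3 intervals include the equal share of 33.3%. The lowest score was at the inner place in 63 runs, 27.0% (21.4% to 33.2%), with an upper limit just under the equal share. The median score was 120.0 (108.3 to 135.8) for inner peaks, 87.2 (80.7 to 95.9) for first and 101.7 (88.4 to 115.9) for last peaks. The interval of inner peaks was apart from that of first peaks and overlapped that of last peaks. All places come from the same runs, and these intervals leave that pairing out, so they do not measure differences within runs. In the 46 runs of 4 peaks, the highest score was at an inner place in 23, where 2 of 4 places are inner. Among 3-peak runs built from peaks with scores of 100 or more, the share with the strongest peak inside was 26.8% (14.2% to 42.9%).

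By width, the last place led and the first was again the least frequent. The widest peak was the inner one in 83 of the 233 runs, 35.6% (29.5% to 42.1%), the last in 90, 38.6% (32.3% to 45.2%), and the first in 59, 25.3% (19.9% to 31.4%), with 1 tie. The share of the first place lay under the equal share with its whole interval. Median widths were 497 bp (469 to 533 bp) for inner, 423 bp (406 to 447 bp) for first and 470 bp (445 to 500 bp) for last peaks. The narrowest peak was the inner one in 64 runs, 27.5% (21.8% to 33.7%). These intervals were not adjusted for the 12 shares compared.

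**Figure D4:**
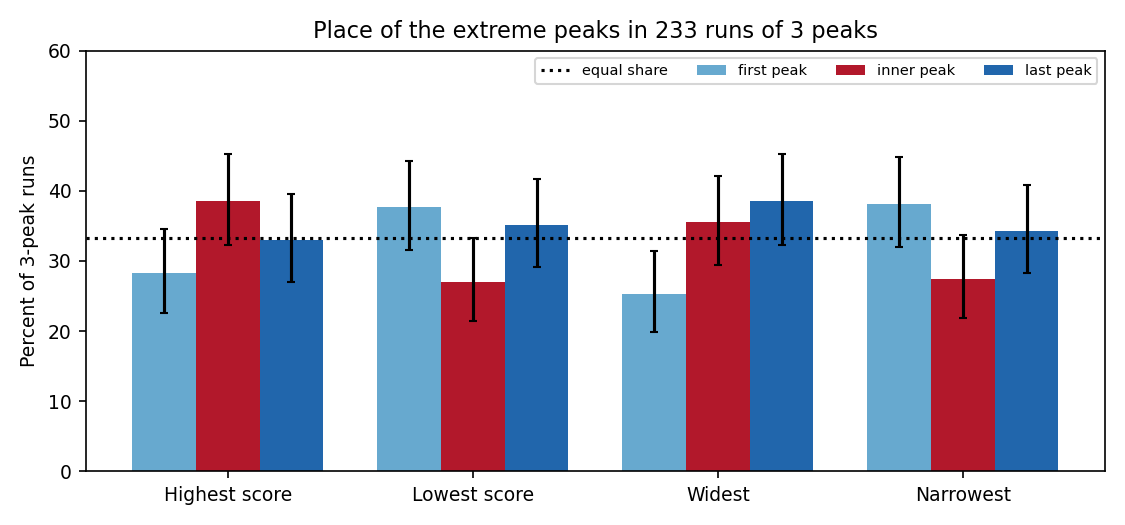
Percent of the 233 runs of 3 peaks (y axis) in which the first, inner or last peak had the highest score, the lowest score, the greatest width or the smallest width. Error bars are exact 95% intervals and the dotted line is the equal share of 33.3%; the bar for the first peak being widest, 25.3%, lies under the line with its whole error bar.

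Runs lay in places with more peaks around them. Apart from its own peaks, a run had a median of 2 other peaks within 50 kb of its centre, against 1 for 2-peak and 1 for 1-peak regions. No other peak was that near in 74 of 287 runs, 25.8% (20.8% to 31.3%), against 4124 of 9684 regions of 1 peak, 42.6% (41.6% to 43.6%). Another joined region lay within 10 kb of 98 runs, 34.1% (28.7% to 39.9%), against 1991 regions of 1 peak, 20.6% (19.8% to 21.4%). Regions of 2 peaks, with 21.9% (20.0% to 23.8%), were close to those of 1 peak in this measure. The median distance to the nearest region was 20.7 kb for runs and 37.9 kb for 1-peak regions. Within chromosomes, the median number of other peaks within 50 kb was higher for runs than for 1-peak regions on 13 of 22 autosomes, equal on 9 and lower on 0. On chromosomes 2, 3, 4, 8, 10, 13, 15 and 18 the median of 1-peak regions was 0, so that of runs could not be lower. Some medians also rest on very few runs, such as 3 runs on chromosome 22. The share of runs with a region within 10 kb was 31.8% among runs of 3 peaks, 41.3% among those of 4 and 62.5% among the 8 of 5 or more. These shares rest on 233, 46 and 8 runs and have no intervals. Whether the share rises with the number of peaks was not tested.

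The median distance from a run to the nearest other run was 1103578 bp, and 248 of 287 had no other run within 100 kb. Whether runs lay nearer to each other than so few regions would if spread evenly was not tested. Within 100 kb of 39 runs, 13.6% (9.84% to 18.1%), there was another run, and within 10 kb of 18 runs, 6.27% (3.76% to 9.73%). The 39 runs formed 18 pairs and 1 group of 3, which spanned 83927 bp at chr15:67358087-67442013 with 10 peaks in its runs. The closest pair was on chromosome 7, where the run of 6 peaks at chr7:5459624-5464552 was 1551 bp from a run of 3 peaks.

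All 22 autosomes held at least 1 run, at unequal rates. Over all autosomes there were 24.3 runs per 1000 joined regions (21.6 to 27.3). Chromosome 21 had the highest rate, 72.4 (36.7 to 125.8), with 11 runs among 152 regions. Chromosome 14 followed with 45.1 (28.8 to 66.9) and 23 runs, and chromosome 19 with 41.6 (28.6 to 58.2) and 32 runs. The lowest rates were 9.52 (1.97 to 27.6) on chromosome 4, 9.69 (2.65 to 24.6) on chromosome 10 and 9.97 (2.06 to 28.8) on chromosome 22, from 3, 4 and 3 runs. The intervals of these last 3 include the overall rate. Besides chromosomes 14, 19 and 21, which lay above it, only chromosome 3 lay apart from the overall rate, at 12.0 (5.18 to 23.5) with 8 runs. The intervals were not adjusted for 22 chromosomes.

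**Figure D5:**
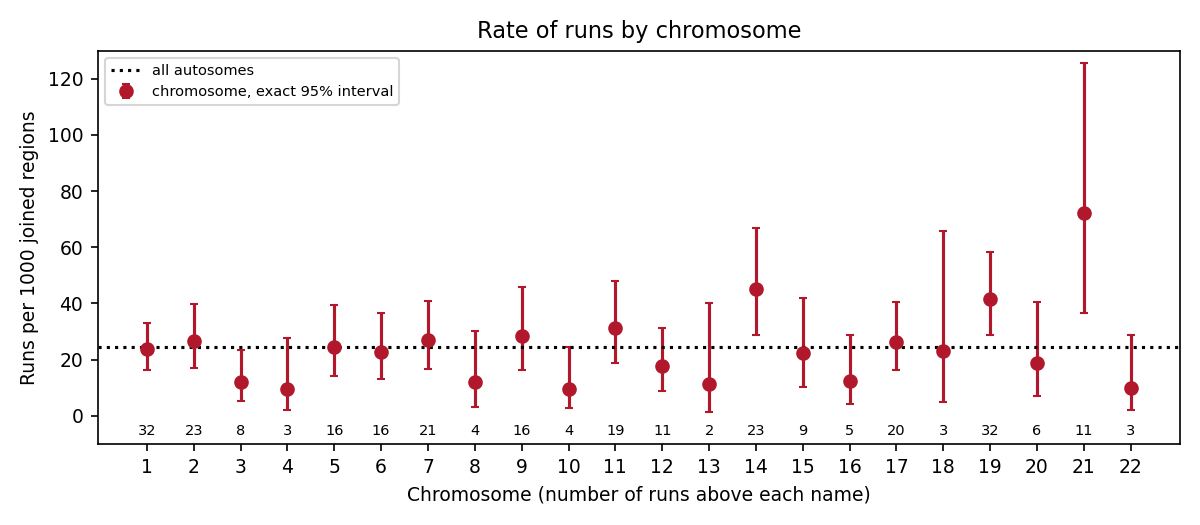
Runs per 1000 joined regions (y axis) on each autosome (x axis) with exact 95% intervals; the dotted line is the rate of all autosomes, 24.3, and the number of runs stands above each chromosome name. Chromosomes 14, 19 and 21 lie above the line with their whole interval and chromosome 3 below it.

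When peaks were joined at 500 bp or less, the overall rate was 17.4 runs per 1000 regions. Chromosomes 21 and 14 still lay above it, at 44.0 (17.9 to 88.6) and 32.0 (18.7 to 50.7), and chromosome 19, at 23.5 (14.2 to 36.4), did not. Chromosome 3, at 10.2 (4.12 to 20.9), no longer lay below it with its whole interval. Among peaks above the median score, the overall rate was 5.78, and the rates of 25.3 (3.08 to 88.5) on chromosome 21, 9.90 (2.05 to 28.7) on chromosome 14 and 9.05 (2.47 to 23.01) on chromosome 19 were not apart from it. On chromosome 3 no run was found in that setting, which allows a rate of up to 9.41 (exact 95% interval from 0). On chromosome 21, 2 pairs of its 11 runs lay within 10 kb, at chr21:9825383-9838757 and chr21:9841052-9845334, 2294 bp apart, and at chr21:47392335-47394533 and chr21:47401133-47402868, 6599 bp apart. The 9 runs beyond the first pair were at 18983874 and higher positions, with top scores of 91.26 to 2426.91. The 23 runs of chromosome 14 stretched from 21149656 to 105942373, with top scores of 84.38 to 701.76, and 1 pair of them was within 10 kb. The runs of chromosome 19 had a median top score of 380.3, the highest of all autosomes, against 205.95 over all runs.

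Some chromosomes ranked differently in their rates of runs and of 2-peak regions. Chromosome 22 had the most 2-peak regions for its number of regions, 199.3 per 1000, and was among the 3 lowest in runs, whereas chromosome 21 had 138.2 2-peak regions per 1000. Across the 22 autosomes, Spearman's rho between the rates was -0.19, and both share the number of joined regions as denominator. A region counted as a run cannot also count as one of 2 peaks. Several rates rest on few runs, such as 2 on chromosome 13 and 3 each on chromosomes 4, 18 and 22. Whether the rates are related therefore cannot be decided from these values. Between runs per 1000 regions and peaks per Mb of span, rho was 0.45 and Pearson's r 0.31 (n = 22). Both rates rest on the same peaks.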

How the data were processed

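ZFX ChIP-seq peaks in DAOY cells were analysed for 1 ZFX library; the samples were grouped by the antibody in the labels, and the input was not analysed here. Bowtie2 2.0.0 and the build hg19 are named, without roles, per the submitters' processing notes; hg19 was taken as the build of the positions. The peak names in the deposited list carry the name MACS; its version, threshold and control are given neither in the labels nor in the file. The score of each peak is as the authors deposited it, with no stated unit, and served here for ranking, filtering and describing peaks of this one list. Starts were taken as counted from 0 and are printed counted from 1. A gap is the number of bases between neighbouring peaks. Read depth is unknown.

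The joining of peaks was tested on simulated data, in which the totals of regions by number of peaks were recovered for 11000 of 11000 regions. Regions were not matched 1 by 1. Simulated regions lay well over 1000 bp apart, so gaps just above that limit were not tested. Shares have exact Clopper-Pearson intervals and medians exact order-statistic (binomial) intervals, all at 95%. No p-value was computed. Named runs were those of 5 or more peaks, the 5 highest in top score, the 5 longest, the 5 shortest and those nearest to the gap limit. The rule for runs, the results and the named runs were chosen with earlier results of these data known. Alternatives were join distances of 500 and 2000 bp, higher scores, 4 or more peaks, other sets of chromosomes and starts counted from 1. Tools were scipy 1.17.1, pandas 2.3.3, numpy 2.4.6 and, for figures, matplotlib 3.10.9, under Python 3.11.15.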

Additional observations from a re-analysis of the deposited data

How the results depend on the processing

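Of 115 alternatives for 13 results, 80 stayed within the interval of the main value (for the number of runs, within 1.5 times), 34 moved out of it and 1 turned round; leaving out chromosomes 14 and 21 was chosen after seeing the data. The share of 3-peak runs with the strongest or widest peak inside is given over all runs in the alternative on peak number. Chromosomes 1 and 19 tied for the most runs, so each was left out in turn. At a join distance of 500 bp, runs had a median length of 1931 bp, a median gap of 124.5 bp and a rate of 17.4 per 1000 regions. At 2000 bp these were 2479.5 bp, 250 bp and 31.4. With runs of 4 or more peaks, 54 runs remained by construction, with a median length of 3349.5 bp, a top score 2.21 times that of 1-peak regions, a rate of 4.57 and a width ratio turned to 1.04. With peaks above the median score there were 38 runs, with a median length of 2796.5 bp, a gap of 198 bp and a rate of 5.78; the strongest and the widest peak were inside in 27.8% each, and the ratios to 1-peak regions were 0.791 for score and 1.53 for top score. With scores of 100 or more these were 44 runs, 2711.5 bp, a rate of 6.31, 26.8% each, 0.802 and 1.23. Fewer peaks, by the alternatives' own construction, give fewer runs; the cause of the other shifts was not tested. Read depth is unknown, so weak peaks missed between or beside those listed cannot be counted. No paired analysis was possible because only 1 library has peaks.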

Other observations

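Chromosomes X and Y, outside the rule, held 6 further runs. On chromosome X, 4 of 150 joined regions were runs, 2.67% (exact 95% interval 0.731% to 6.69%). The one with the most peaks, 5, was at chrX:153596792-153599681, with a top score of 93.86 over 2890 bp. On chromosome Y, 2 of 8 joined regions were runs (exact 95% interval 3.19% to 65.1%). One of them, at chrY:10035218-10037941, had 5 peaks with a top score of 1821.82 and a median score of 908.14, and peaks covered 51.8% of its 2724 bp. That median lay above the median score of all but 1 of the 287 autosomal runs. This run was not screened for repeated sequence either, and the part of such sequence in its scores was not tested.

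Joined at 5000 bp or less in place of 1000 bp, the autosomal peaks gave 498 regions of 3 or more peaks, and the richest of them held 17 peaks. At 100 bp or less there were 47 such regions, with at most 4 peaks each.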
